A study of Mus musculus with 6 samples.

Results

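Genes of the peripheral nerve, 7 in number, were examined in a whole-transcriptome comparison of the embryonic mouse pancreas. They were chosen by name, as genes of neural crest glia and of the neurons that innervate the pancreas, and not by any measured value. The glial genes were Sox10, Erbb3 and Fabp7, and the neuronal genes were Tubb3, Stmn2, Prph and Nefl. Of these 7 genes, 6 were found among the 14681 genes of the authors' deposited table; no row used here carries the symbol Nefl, which was not analysed. The libraries came from dorsal pancreas of C57BL/6 embryos at embryonic day 18.5, in 3 control and 3 knockout samples. The sample titles say no more than control and knockout; the extraction protocol names the mutant Dpy30∆P and the series title places the loss in the pancreas. Dpy30 is a core subunit of the Trithorax group complexes that methylate lysine 4 of histone H3. The Cre driver, the floxed allele and the genotype of the controls stand in none of the sources used here, although the name of the table refers to Pdx1, a pancreatic epithelial factor.

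Nerves reach the pancreas from outside it. Neural crest cells migrate into the organ, where they give rise to Schwann cell precursors, to satellite glia and to the neurons of small intrapancreatic ganglia, while axons of sympathetic, parasympathetic and sensory neurons enter along vessels. Schwann cells depend on the transcription factor Sox10 and on neuregulin signals from axons, which they receive through the receptor pair of Erbb3 and Erbb2. Endocrine cells of the islet share many genes with neurons, including stathmins, tubulins, neurofilaments and synaptic vesicle proteins, so none of the neuronal genes is exclusive to nerve in this tissue.

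The table held 1 mean of normalized counts per gene over all libraries, a shrunken log2 fold change, a p-value and its adjusted form. The value of a gene in a single sample cannot be given from it, and whether the groups overlapped is unknown. The depth of each library is unknown too; the mean counts of all genes in the authors' deposited table summed to 3663175. The numerator of the fold changes is not stated, so signs are reported as deposited. If the mutant is the numerator, as is common, positive would be higher in the knockout. Dpy30 itself (Entrez gene 66310) did not settle the sign: its mean count was 29.4 in the authors' deposited table, and its reconstructed log2 fold change, explained below, was 0.50 ± 1.66 (SE). Pancreatic identity was clear from Ins2 (insulin), at a mean count of 5335 in the authors' deposited table.

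Together the 6 genes made up a small share of the table. Their mean counts in the authors' deposited table summed to 290.5, or 0.00793% of the table's total. Erbb3 and Stmn2 lay above the median mean count of all genes, 65.1, and the other 4 lay below it. Every one was above 8.15, the highest mean count at which the authors' deposited table gave a nominal p without an adjusted one.

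**Figure D1:**
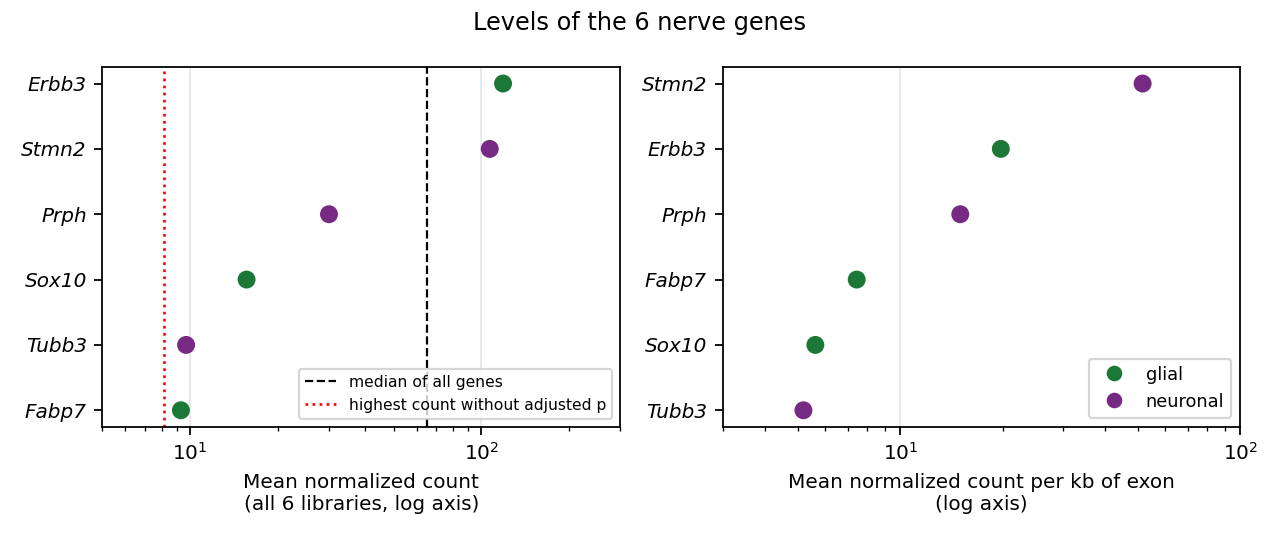
Mean normalized count over all 6 libraries (left, log axis) and the same per kilobase of exon (right, log axis) for the 6 nerve genes, with glial genes in green and neuronal genes in purple. Erbb3 and Stmn2 lie above the median of all genes (65.1, dashed line), while Fabp7 and Tubb3 lie just above the highest count without an adjusted p (8.15, dotted line); per kilobase Stmn2 leads at 51.6.

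Among the glial genes, Erbb3, the receptor through which Schwann cells read neuregulin, had the highest mean count, 118.8 in the authors' deposited table. It exceeded 64.8% of all genes. Erbb3 (Entrez gene 13867) occupies chromosome 10 from 128567523 to 128589635 on the minus strand of GRCm38, in 28 exons, and the microRNA gene Mir6917 lies within it. Epithelial cells also make Erbb3, so its reads cannot be assigned to glia. Sox10, the transcription factor that specifies neural crest glia, had a mean count of 15.6 in the authors' deposited table and exceeded 23.5% of genes. It is Entrez gene 20665, on chromosome 15 from 79154913 to 79164490 (minus strand). Fabp7, a fatty acid binding protein of Schwann cell precursors and other immature glia, had a mean count of 9.31 in the authors' deposited table, the lowest of the 6. It is Entrez gene 12140, on chromosome 10 from 57784923 to 57788450 (plus strand). Erbb3 thus stood well above the more glia-restricted genes Sox10 and Fabp7 in mean count. Its exons are longer, and per kilobase of exon it stood less far above them, at 2.65 times Fabp7.

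Among the neuronal genes, Stmn2, a stathmin that destabilizes microtubules in growth cones, had a mean count of 107.0 in the authors' deposited table and exceeded 62.2% of genes. Stmn2 (Entrez gene 20257) runs from 8509527 to 8561604 on chromosome 3 (plus strand). Prph, the intermediate filament peripherin of peripheral neurons, had a mean count of 30.0 in the authors' deposited table. It is Entrez gene 19132, on chromosome 15 from 99053579 to 99058978 (plus strand). Tubb3, the neuronal beta tubulin, had a mean count of only 9.69 in the authors' deposited table. Tubb3 (Entrez gene 22152; chromosome 8, 123411553 to 123422015, plus strand) lies wholly within the annotated span of Gm20388 on the same strand and closely resembles other beta tubulin genes, so its count is uncertain. Nefl (Entrez gene 18039; chromosome 14, 68083863 to 68089095), the light neurofilament subunit, lies within the annotated span of Nefm on the opposite strand. Nefm, the medium neurofilament subunit, had a mean count of 48.8 in the authors' deposited table.

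Levels can be ordered between genes only per length. Divided by the merged exon length of coding transcripts, Stmn2 came first at 51.6 counts per kilobase, from 2073 bases of exon. Erbb3 followed at 19.8 and Prph at 15.0 counts per kilobase. Fabp7 was at 7.44, Sox10 at 5.63 and Tubb3 at 5.19 counts per kilobase. The long Erbb3 exons, 6016 bases in all, thus put it behind Stmn2 on this scale although its mean count was higher. No spread over samples exists for these levels, so whether neighbours in this order differ was not tested.

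None of the 6 genes differed detectably between knockout and control. In the authors' deposited table, 0 of the 6 were called at an adjusted p under 0.05 by DESeq2, against 0.743% of the 12108 genes with an adjusted p, and 0 had a nominal p below 0.05, against 5.39% of the 14386 genes with a p. At these rates a set of 6 genes would seldom hold a call, so the count by itself says little about them. The adjusted p was 1.00 for each of the 6 in the authors' deposited table. Their nominal p ran from 0.189 for Sox10 to 0.858 for Stmn2, with a median of 0.727, beside a median of 0.513 over all genes with a p. In bulk tissue, fewer cells of a type and less RNA per cell cannot be told apart. Nothing in the labels says that the samples are separate litters, and the p-values rest on the spread among these samples alone.

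The deposited fold changes of the 6 genes were all shrunken almost to 0, from -0.01 for Stmn2 to 0.02 for Erbb3 on the log2 scale in the authors' deposited table. Shrinkage of this kind pulls every poorly measured gene to 0, so these values give no bound on the change. Unshrunken values were therefore reconstructed from each deposited fold change and its SD.

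Erbb3 was the most precisely measured of the 6. Its reconstructed log2 fold change was 0.24 ± 0.75 (SE), with a 95% interval from -1.24 to 1.71, or from 0.424-fold to 3.27-fold. Its nominal p was 0.757 in the authors' deposited table. Relative to mesenchyme genes its sign turned, to -0.24. Changes within these bounds are not excluded. The bounds are not a limit of detection, since a call at this SE would take a log2 fold change of 2.69.

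Sox10 gave the smallest p of the 6, with a positive sign, and its size could not be fixed. The reconstructed log2 fold change was 5.67 ± 4.08 (SE), with a 95% interval from -2.33 to 13.67, and the nominal p was 0.189 in the authors' deposited table. The SE of Sox10 exceeded that of 88.6% of 845 genes with a reconstructed value and a mean count within 1.3 times its own. Their median SE was 2.71. All these SEs depend on the prior assumed in the reconstruction. Fabp7 was at 0.79 ± 3.08 (SE), with a 95% interval from -5.25 to 6.83, and a nominal p of 0.790 in the authors' deposited table. The 3 glial genes therefore all had a positive sign as deposited, which for Erbb3 turned relative to mesenchyme genes, and each interval includes 0.

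Stmn2 was the best measured neuronal gene. Its reconstructed log2 fold change was -0.15 ± 0.89 (SE), with a 95% interval from -1.89 to 1.59, or from 0.270-fold to 3.00-fold. The authors' deposited table gave a nominal p of 0.858. Relative to epithelial genes its sign turned, to 0.62. Prph was at 0.71 ± 1.82 (SE), with an interval from -2.86 to 4.28 and a nominal p of 0.697 in the authors' deposited table. Tubb3 was at -3.15 ± 4.45 (SE), with an interval from -11.88 to 5.58 and a nominal p of 0.442 in the authors' deposited table. The neuronal genes thus did not share a sign, and the intervals of all 3 include 0.

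**Figure D2:**
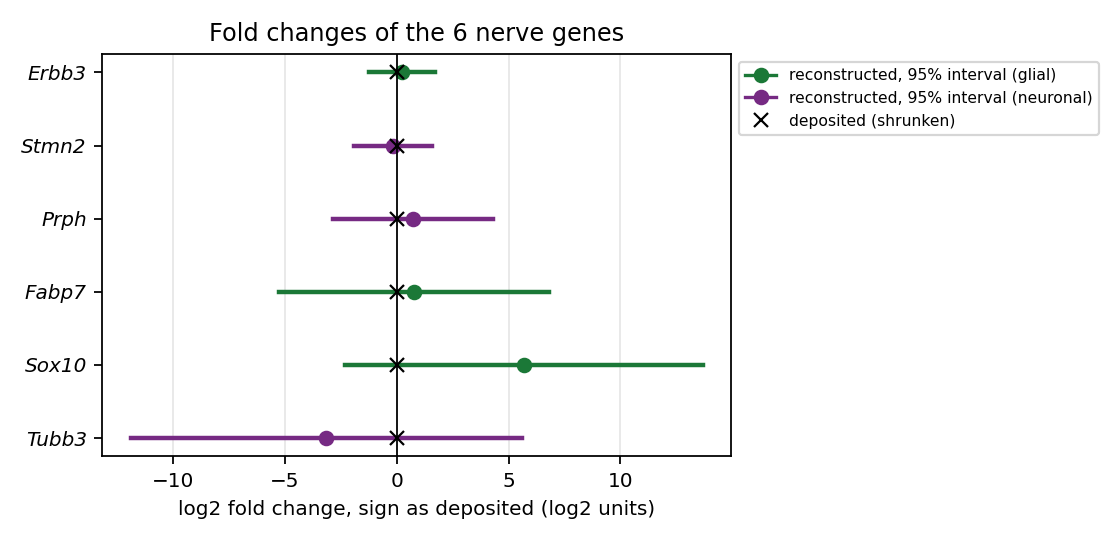
Reconstructed log2 fold changes (x axis in log2 units, with the deposited sign) of the 6 nerve genes, drawn as circles with 95% intervals, and the authors' deposited shrunken values as crosses. Every interval spans 0; Erbb3 (-1.24 to 1.71) and Stmn2 (-1.89 to 1.59) are the narrowest, and Sox10 and Tubb3 the widest.

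Precision set these bounds. The largest nominal p among called genes was 0.000347 in the authors' deposited table. At the SE of Erbb3, a log2 fold change of 2.69 either way (6.45-fold) would reach that p, and at the SE of Stmn2 one of 3.17 (9.03-fold). The other 4 genes had an SE over 1. Erbb3 was measured more tightly than most genes of like abundance. Of the 1824 genes with a reconstructed value and a mean count within 1.3 times its own, 17.2% had a smaller SE. Tubb3 was measured less tightly, with an SE above that of 86.0% of 694 such genes. Calls did occur at these abundances. Of the 6750 genes with an adjusted p and a mean count between those of Fabp7 and Erbb3, 41 were called in the authors' deposited table, or 0.607%. Their deposited log2 fold changes were as small as 0.01 in absolute value. Some of them, such as Casc4 and Tnr, had no reconstructed value. For those no SE or size can be set beside these bounds.

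**Figure D3:**
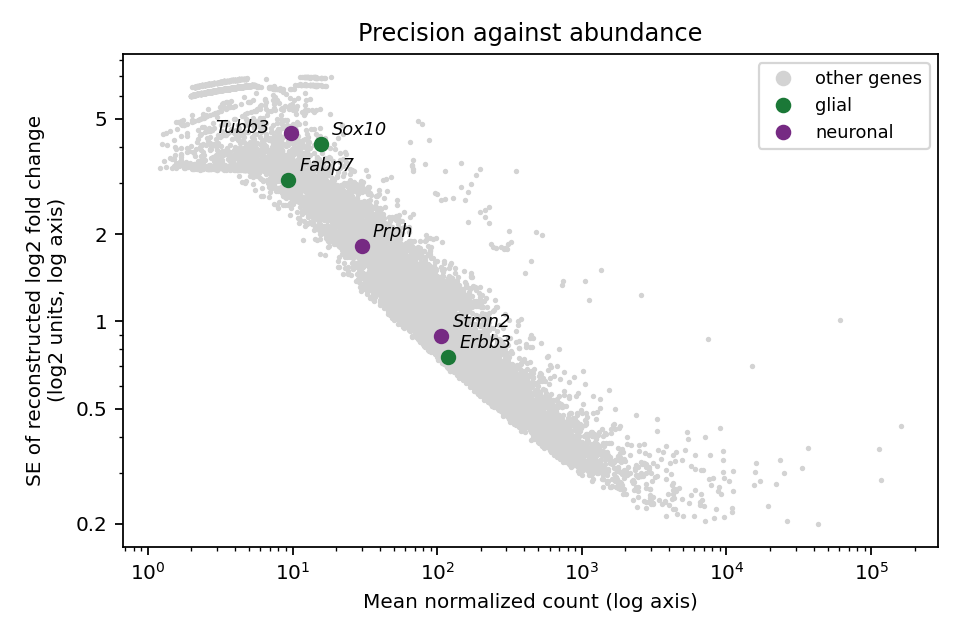
SE of the reconstructed log2 fold change (y axis, log2 units, log axis) against mean normalized count (x axis, log axis) for all genes with a matched value (grey) and the 6 nerve genes. Erbb3 and Stmn2 fall below an SE of 1, Prph lies at 1.82, and Sox10 (4.08) and Tubb3 (4.45) sit in the upper part of the cloud at their counts.

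The wider nerve programme was examined through 9 lists, which hold 120 genes besides the 7. Of these, 90 had a row, 89 a nominal p and 64 also an adjusted one in the authors' deposited table. As with the 6 genes, 0 of the 64 were called by DESeq2, against 0.743% of the 12108 genes with an adjusted p. At this rate a set of 64 genes can easily hold no call, and the shorter lists given below more easily still. These counts of 0 by themselves therefore say little about the nerve programme. Of the 89 genes with a nominal p, 6, or 6.74%, had one below 0.05 in the authors' deposited table, 5 of them positive and 1 negative. That share is near the 5.39% of all genes. Signs were split, with 44 positive and 45 negative, or 49.4% positive beside 54.8% over all genes with a p. The median reconstructed log2 fold change over the 28 genes with an SE of at most 1 was 0.07, beside -0.04 over 5710 such genes in all. Over all genes with a matched value the order was the other way, with a median of -0.02 over 83 nerve genes and 0.08 over 13059 genes.

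Of the other Schwann cell precursor and glial genes, 9 of 13 had a row, 0 were called, 0 had a nominal p below 0.05, and 6 were positive in the authors' deposited table. Ncam1, a cell adhesion molecule of glia and neurons that other cells of the pancreas also make, was the most abundant, its reconstructed log2 fold change being 0.86 ± 0.67 (SE). Ednrb, the endothelin receptor of migrating neural crest, which endothelial cells also carry, was at -0.68 ± 0.76 (SE). Gfra3, a receptor for artemin, had a mean count of 3.38 in the authors' deposited table, too low for any statement.

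Of the 11 myelin genes, 8 had a row and 0 were called in the authors' deposited table; 2 were positive and 6 negative. Pmp22, a membrane protein of compact myelin that fibroblasts and epithelia make as well, was the most abundant, at -0.09 ± 0.51 (SE) on the reconstructed log2 scale. Mbp (myelin basic protein) was at -0.72 ± 0.67 (SE), and Gjb1, a gap junction protein of Schwann cells that acinar and liver cells also make, at -1.09 ± 0.79 (SE). Cnp, a phosphodiesterase of myelinating cells, had the smallest p of the list, 0.0418 in the authors' deposited table (adjusted p = 0.745), at 1.92 ± 0.91 (SE). Pmp22, Mbp and Gjb1, which had the tightest values, were thus negative, and Cnp, with a larger SE, was positive.

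Of the other cytoskeletal and growth cone genes of neurons, 9 of 12 had a row, with 0 called and 0 at a nominal p below 0.05 in the authors' deposited table. Map1b, a microtubule-associated protein of growing axons, had a mean count of 722.3 in the authors' deposited table and a reconstructed log2 fold change of 0.10 ± 0.45 (SE). Dpysl3, a growth cone protein that mesenchymal cells also make, had a mean count of 682.3 in the authors' deposited table and was at 0.24 ± 0.35 (SE). Mapt, the axonal protein tau, had a mean count of 3.06 in the authors' deposited table and an undetermined size. The 4 of these genes with an SE of at most 1 ran from -0.41 to 0.24 on the reconstructed log2 scale.

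Of the 15 genes of neuronal RNA binding and the synapse, all had a row, 14 had a p and 0 were called or had a nominal p below 0.05 in the authors' deposited table; 5 were positive and 9 negative. None had an SE of at most 1. Stx1a, a SNARE protein of vesicle fusion in neurons and islet cells, was the most abundant, at -0.41 ± 1.22 (SE) on the reconstructed log2 scale. Rab3a, a vesicle GTPase shared by neurons and endocrine cells, was at -0.09 ± 1.61 (SE). The neuronal RNA-binding proteins Elavl2 and Elavl4 had mean counts of 11.2 and 3.88 in the authors' deposited table, with nominal p of 0.0701 and 0.156, both negative.

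Of the 9 autonomic transcription factors, 6 had a row and 0 were called in the authors' deposited table, and 2 had a nominal p below 0.05, in opposite directions. Hand2, a factor of sympathetic neurons and of mesenchyme, had a mean count of 376.8 and a nominal p of 0.0378 in the authors' deposited table (adjusted p = 0.719). Its reconstructed log2 fold change was 1.01 ± 0.48 (SE). Isl1, a factor of autonomic neurons, islet endocrine cells and pancreatic mesenchyme, had a nominal p of 0.00780 with a negative sign in the authors' deposited table (adjusted p = 0.371), and no size could be reconstructed for it. Of the 17 genes of autonomic transmitters and their receptors, 8 had a row, with 0 called and 0 at a nominal p below 0.05 in the authors' deposited table. Gal, which encodes the neuropeptide galanin, was the most abundant, at 0.07 ± 0.90 (SE) on the reconstructed log2 scale. Ddc, the decarboxylase that makes dopamine and serotonin in neurons and endocrine cells, was at -0.14 ± 1.44 (SE). Chat, the enzyme that makes acetylcholine, and Chrna3, the ganglionic nicotinic receptor subunit, had mean counts of 5.08 and 5.10 in the authors' deposited table, too low for a bound of use.

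Neuregulins and neurotrophic factors are the signals that nerves exchange with their glia and targets. Of the other neuregulin and ErbB genes, 5 of 7 had a row and 0 were called or had a nominal p below 0.05 in the authors' deposited table. Erbb2, the partner of Erbb3, was at 0.30 ± 1.05 (SE) on the reconstructed log2 scale. Egfr, the epidermal growth factor receptor, was at -1.31 ± 0.75 (SE; nominal p = 0.0838 in the authors' deposited table), and Nrg4, a neuregulin, had a mean count of 9.28 and a nominal p of 0.0816 there. Of the 17 neurotrophin and GDNF family genes, 14 had a row and 9 an adjusted p. Of the 9, 0 were called, and of the 14, 7 were positive and 7 negative. Gfra4, the receptor for persephin, had the smallest p, 0.0169 in the authors' deposited table (adjusted p = 0.550), at a mean count of 11.3. Ntrk2, the BDNF receptor, and Gfra2, the neurturin receptor, were at 0.38 ± 0.84 and 0.43 ± 0.94 (SE) on the reconstructed log2 scale.

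Axon guidance genes were the most abundant of the 9 lists, at 0.110% of summed mean counts, and many are made by mesenchyme and vessels. Of 21, 17 had a row and 0 were called in the authors' deposited table; 2 were positive at a nominal p below 0.05 and 0 negative. Slit2, a secreted repellent of axons, had the smallest p, 0.00457 in the authors' deposited table (adjusted p = 0.281), its reconstructed log2 fold change being 1.37 ± 0.49 (SE). Unc5c, a netrin receptor, had a mean count of 15.7 and a nominal p of 0.0375 in the authors' deposited table. Slit3, a relative of Slit2, was at 0.35 ± 0.34 (SE), and Sema3d, a secreted semaphorin, at -0.65 ± 0.45 (SE). The genes of this list thus lay on both sides of 0, with 8 positive and 9 negative.

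**Figure D4:**
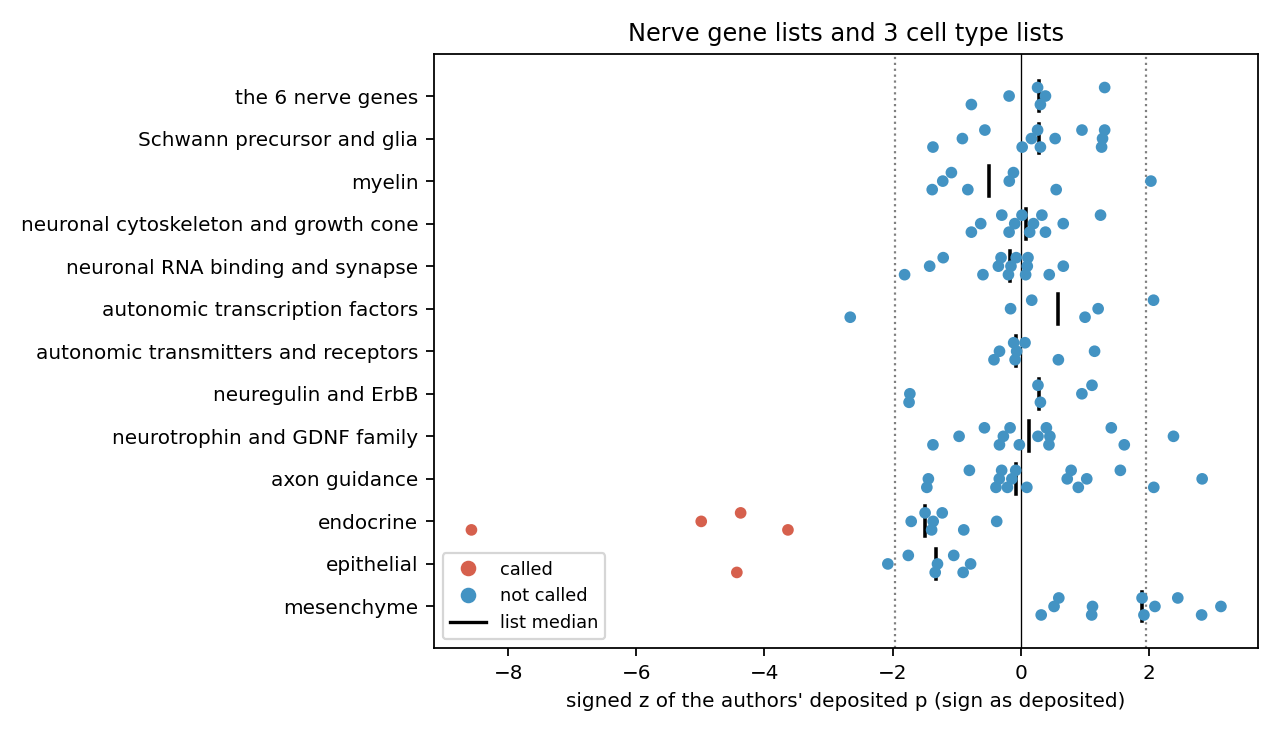
Signed z of the authors' deposited p (x axis, sign as deposited) for each member of the 6 nerve genes, the 9 nerve lists and 3 cell type lists (rows); black bars are list medians and dotted lines mark a nominal p of 0.05. Called genes (red) appear in the endocrine and epithelial rows alone, and nerve list members lie on both sides of 0.

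Marker lists of other cells in the tissue are given beside the nerve genes because some of those genes are shared with them. All 11 endocrine genes with a p were negative and 4 were called: Ins2, Chga, Chgb and Gcg, with a list median of -2.41 over 7 genes with an SE of at most 1 on the reconstructed log2 scale. Stmn2, which endocrine cells can also express, was at -0.15 ± 0.89 (SE). All 8 epithelial genes with a p were negative and 1, Krt18, was called, with a list median of -0.67 over the 6 genes with an SE of at most 1 and of -1.04 over all 8. Erbb3, which epithelium also expresses, was at 0.24. All 11 mesenchyme genes were positive, 0 were called and 4 had a nominal p below 0.05 in the authors' deposited table, with a median of 0.53; Col3a1 had the smallest p, at 0.63 ± 0.20 (SE). Over all genes, DESeq2 called 0.743% of those with an adjusted p. Of all genes with a p, 5.39% had a nominal p below 0.05 and 54.8% were positive. Of the summed mean counts, the endocrine list took 0.223%, the epithelial list 0.174% and the mesenchyme list 2.25%. Differences between these lists and the nerve genes, and the part these cells play in the nerve genes' values, were not tested.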

How the data were processed

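Per the labels' protocols, RNA of dorsal pancreas was cleared of genomic DNA and ribosomal RNA before stranded libraries were prepared. The submitters' processing notes name Trimmomatic, Salmon and DESeq2, and the build GRCm38 (mm10). Versions, annotation and the design are not stated there. The authors deposited 1 table, whose values are a mean normalized count over all libraries (a signal), a log2 fold change with its error in log2 units, and a p-value with an adjusted p-value. It has no values per library, so no gene was tested again and calls are the authors' at an adjusted p under 0.05. A p was present for 14386 of 14681 genes, and an adjusted p for 12108. Recomputed Benjamini-Hochberg values came within 0.000755 of the deposited adjusted p.

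Unshrunken fold changes were solved from the deposited log2 value and its posterior SD, assuming a Cauchy prior of 1 scale and a quadratic likelihood. A scale of 0.31025 returned the z of the deposited p best, with a median difference of 0.00854. Sizes and SEs of low-count genes, such as Sox10 and Tubb3, can depend closely on the exact scale. How far they move at nearby scales was not tested. Values are given where z came within 0.1, as for 90.8% of genes with a p and all 6 nerve genes; intervals are 95% normal ones. The arithmetic was tested on simulated data. Code ran in Python 3.11.15 with scipy 1.17.1.

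Coordinates came from RefSeq on GRCm38.p6, matched by Entrez identifier, and exon lengths from GENCODE M21. Named besides the 7 genes are, from each of 9 nerve lists, called members, the 2 with the smallest p and the 2 with the highest mean count; from each of 7 cell type lists (endocrine, epithelial, mesenchyme, melanocyte, adrenal chromaffin, central nervous system glia, interstitial cells of Cajal), called members and the 1 with the smallest p. Genes and lists were chosen with earlier results of these data known. Genes most like these over samples could not be sought without values per sample. Some genes that this rule takes are left out of the text.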

Additional observations from a re-analysis of the deposited data

How the results depend on the processing

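The count of 0 calls among the 6 genes held at an adjusted p under 0.1, with adjustment over every gene with a p, and with adjustment over genes with a mean count of at least 10, which leaves 4 of the 6. The count of 0 among the other nerve genes held for the 62 with a mean count of at least 10. The median reconstructed log2 fold change of the 6, 0.47, was 0.01 with deposited shrunken values and 0.47 when solved from the deposited p, an alternative chosen after seeing the data. Taken relative to epithelial genes (weighted mean -0.78) it was 1.25, relative to mesenchyme genes (0.48) it was -0.01, and relative to genes with a mean count over 1000 (0.07) it was 0.40. These constants turned 2 signs: Erbb3 was -0.24 relative to mesenchyme genes, and Stmn2 0.62 relative to epithelial genes. With them 0 of the 6 were called, while of 11354 genes with a matched value 321, 107 and 52 were, beside 90 of 12108 as deposited. The 90 include genes without a matched value, such as Casc4 and Tnr, so they and the other counts do not cover the same genes. Prior scales of 0.5 and 2 times the fitted one matched 0 of the 6 genes and gave no value, so they cannot show how far the sizes depend on the scale. Solved from the deposited p, Sox10 was 5.06 ± 3.86 (SE) and Tubb3 -3.72 ± 4.84 (SE). The other genes moved less. No paired analysis was possible because the table holds no values per sample; leaving out replicates and a fit to counts could not be run for the same reason. Wide errors limit every statement on size: 4 of the 6 genes had an SE over 1. The depth of each library is unknown, and its part in these errors was not tested.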

Other observations

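Markers of other cells related to nerve by origin or by gene use were also examined. Melanocytes, which arise from the neural crest as Schwann cells do, were followed through 6 markers. Of these, 4 had a row in the authors' deposited table, with 0 called and 0 at a nominal p below 0.05 by DESeq2, and they took 0.00230% of the summed mean counts. Dct, a melanin enzyme, had a mean count of 6.23 and the smallest p, 0.130, in the authors' deposited table. Adrenal chromaffin genes, which would mark stray adrenal or sympathetic tissue, had 3 of 5 members with a row, 0 called and 0 at a nominal p below 0.05 in the authors' deposited table, and took 0.00114% of the summed mean counts; Slc18a1, a vesicular monoamine transporter, had the smallest p, 0.133 in that table of the authors.

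Of 6 genes of central nervous system glia, 2 had a row, 0 were called and 0 had a nominal p below 0.05 in the authors' deposited table. Aldh1l1, a folate enzyme that liver also makes, was at 0.63 ± 0.76 (SE) on the reconstructed log2 scale. Of 3 genes of interstitial cells of Cajal, the pacemaker cells of gut muscle, 2 had a row, 0 were called and 0 had a nominal p below 0.05 in the authors' deposited table. Ano1, a chloride channel of these cells and of acinar cells, was at 0.43 ± 0.49 (SE).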
